A study of Mus musculus with 5 samples.

Results

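Ly6g encodes Ly6G, the surface protein on which all cells of this series were sorted, and it was followed here with 3 other genes of the Ly6 family, Ly6c2, Ly6e and Ly6a. The 4 genes were taken by name from the 21995 genes of the count table. A UMI (unique molecular identifier) marks 1 captured mRNA molecule, and a cell was kept if it had 200 or more UMIs, 100 or more genes and a mitochondrial share under 20%. Live (DAPI-) CD11b+Ly6G+ cells were sorted from spleen, intestine, liver, lung, blood and bone marrow of C57BL/6 mice, an inbred laboratory strain, that were 10 weeks or 20 months old by the sample labels (the design text gives a younger age for the young mice) and kept specific pathogen free at steady state. The sort was done in 2 rounds, each loaded into a cartridge of its own on the BD Rhapsody system, which captures single cells in microwells, and these gave the pools YO1 and YO2. Each pool mixed both ages and several tissues, and no barcode names a tissue or an age, so values are given for each pool and no comparison of tissues or ages was made.

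Proteins of the Ly6 family are small, disulfide-rich domains held at the cell surface by a glycosylphosphatidylinositol (GPI) anchor, and many of their genes lie side by side on mouse chromosome 15. Ly6G is the standard surface marker of mouse neutrophils, and the antibody Gr-1 binds it together with Ly6C, the product of Ly6c1 and Ly6c2, which is also carried by inflammatory monocytes. Ly6e is an interferon-induced gene known from work on virus entry, and Ly6a encodes Sca-1, a marker of mouse hematopoietic stem cells that is also found on lymphocytes and endothelium. Neutrophils grow in the bone marrow from cycling precursors that make azurophil granules, through cells that fill secondary granules with lactoferrin (Ltf) and neutrophilic granule protein (Ngp), to mature cells rich in the calcium-binding proteins S100a8 and S100a9. Protein at the surface can outlast the mRNA that made it, and only mRNA was measured here.

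In the GENCODE M21 annotation of GRCm38 (mm10), Ly6g lies at chr15:75155240-75159126 on the plus strand and Ly6c2 at chr15:75108158-75111970 on the minus strand. Ly6e lies at chr15:74955051-74959905 on the plus strand and Ly6a at chr15:74994877-74998031 on the minus strand. The near copy of Ly6c2, Ly6c1, lies at chr15:75044018-75048830, and Ly6i at chr15:74979534-74983430, both on the minus strand. The start of the coding sequences of Ly6c2 and Ly6c1 is shown because reads of these genes can be confused. Both are 396 bases long, they differ at 9 bases, and 387 (97.7%) are identical. Bases 1 to 270, counted from the A of the start codon, are printed, and capitals mark the 7 differing bases among them. The same bases of Ly6g, whose coding sequence has 405, stand in lower case beneath them. Over all aligned coding bases Ly6g is 85.3% identical to that of Ly6a, 82% to that of Ly6c2 and 62.5% to that of Ly6e.
Ly6c2: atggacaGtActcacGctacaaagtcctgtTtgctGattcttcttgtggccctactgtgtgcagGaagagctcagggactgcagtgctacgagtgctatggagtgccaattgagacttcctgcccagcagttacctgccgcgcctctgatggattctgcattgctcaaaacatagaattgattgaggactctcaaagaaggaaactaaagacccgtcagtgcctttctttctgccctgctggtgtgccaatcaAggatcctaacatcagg
Ly6c1: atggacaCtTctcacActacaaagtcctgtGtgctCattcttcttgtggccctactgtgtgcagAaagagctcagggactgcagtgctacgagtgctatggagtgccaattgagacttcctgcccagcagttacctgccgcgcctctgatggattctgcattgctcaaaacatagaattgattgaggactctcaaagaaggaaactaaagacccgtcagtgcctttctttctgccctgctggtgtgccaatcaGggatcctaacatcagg
Ly6g: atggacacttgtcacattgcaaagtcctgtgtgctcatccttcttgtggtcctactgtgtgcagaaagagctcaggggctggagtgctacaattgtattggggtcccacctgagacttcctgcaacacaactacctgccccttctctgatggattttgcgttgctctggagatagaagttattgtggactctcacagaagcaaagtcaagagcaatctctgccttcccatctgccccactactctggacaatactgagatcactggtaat

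The reads of the transcript end were 42 bases long, and the overlap of the genes at that length differed. Of the 2725 stretches of 42 bases in the annotated Ly6c2 transcripts, 446 (16.4%) also occurred in Ly6c1, and of the 1281 in Ly6a, 232 (18.1%) did. Ly6g shared 36 of 900 such stretches with any other annotated gene and Ly6e 4 of 4120. Counts of Ly6c2 and Ly6a are therefore uncertain to the extent that reads came from shared stretches, and how such reads were counted is not stated in these sources.

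The bases just before the transcripts of Ly6g and Ly6c2 are shown because these genes were both high in granule-forming neutrophils, as described below. They come from the RefSeq promoters of GRCm38.p6, cut where the earliest annotated transcript starts. That start is the same as the GENCODE one for Ly6g and lies upstream of it, in RefSeq, for Ly6c2, so the Ly6c2 window does not adjoin the gene as placed above. The windows are chr15:75155011-75155239 on the plus strand for Ly6g and chr15:75112067-75112221 on the minus strand for Ly6c2. Capitals mark matches on either strand to TTNNGNAA, letters bound by C/EBP factors, and to AGGAAG, letters bound by PU.1. Both factor families act in myeloid development. Overlaps between the 2 kinds of match were not found in either window.
Ly6g promoter: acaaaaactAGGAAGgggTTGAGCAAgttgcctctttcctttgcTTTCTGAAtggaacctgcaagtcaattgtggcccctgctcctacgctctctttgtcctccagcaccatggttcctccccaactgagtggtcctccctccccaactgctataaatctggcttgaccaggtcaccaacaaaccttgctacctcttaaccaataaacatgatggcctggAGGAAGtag
Ly6c2 promoter: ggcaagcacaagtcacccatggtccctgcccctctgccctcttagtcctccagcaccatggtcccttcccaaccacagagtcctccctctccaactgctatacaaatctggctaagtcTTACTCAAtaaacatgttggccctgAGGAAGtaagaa

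In the 229 bases of Ly6g, TTNNGNAA matched 211 and 185 bases before the printed end and AGGAAG matched 220 and 9 bases before it. Among 32851 mouse promoters, 35% held TTNNGNAA and 27.1% held AGGAAG in a window of that length. The 155 bases of Ly6c2 held TTNNGNAA 37 bases and AGGAAG 12 bases before the end, against 26.9% and 18.7% of promoters at that length. A stretch of 102 aligned bases was 84.3% identical between the 2 windows (86 bases). These matches describe letters and do not show binding.

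The filters kept 19505 of 20352 barcodes in YO1 and 17215 of 17720 in YO2, with medians of 1231 and 1454 UMIs and 648 and 729 genes per cell. Of the barcode numbers, 406 occurred in both pools, 374 of them among kept cells. Stages were assigned in turn after cells with markers of other types were set aside. Cycling cells had at least 2 UMIs of the division genes Mki67 and Top2a together, with no neutrophil gene required. Ltf-high cells had at least 5 UMIs of Ltf, and Ngp-positive cells had at least 10 UMIs of Ngp with under 5 of Ltf. Mature cells had at least 2% of their UMIs in S100a8 and S100a9 with under 3 UMIs of Ngp. This gave 792 cycling, 2190 Ltf-high, 434 Ngp-positive and 9995 mature cells in YO1, and 153, 446, 32 and 9895 in YO2. Their median depths ran from 6170 through 2974 and 1972 to 1018 UMIs in YO1, and from 7086 through 4196 and 2771.5 to 1346 UMIs in YO2. Levels are given as CPM, the UMIs of a gene scaled to 1000000 UMIs of all genes in the class. The summed level of 10 neutrophil markers over these stages was 123602, 201298, 218389 and 91504 CPM in YO1 and 69566, 189299, 203946 and 71955 CPM in YO2.

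Ly6g mRNA was concentrated in the granule-forming stages and low in the mature cells that made up most of the sort. Its level in cycling, Ltf-high, Ngp-positive and mature cells was 394, 1613, 1014 and 143 CPM in YO1. In YO2 it was 344, 2075, 943 and 94.5 CPM over the same stages. The order of the 4 stages was the same in both pools, with the Ltf-high cells highest and the mature cells lowest. Averaged over the pools, Ly6g stood at 369 ± 35.4 CPM in cycling, 1844 ± 327 CPM in Ltf-high, 978 ± 49.97 CPM in Ngp-positive and 119 ± 34.6 CPM in mature cells (SD, n = 2 pools), and no stage's range overlapped that of another. Ltf-high cells were 11.2% of YO1 and 2.59% of YO2 and held 65.7% and 63.0% of all Ly6g UMIs. Mature cells were 51.2% and 57.5% of the pools and held 9.59% and 22.8% of these UMIs.

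**Figure D1:**
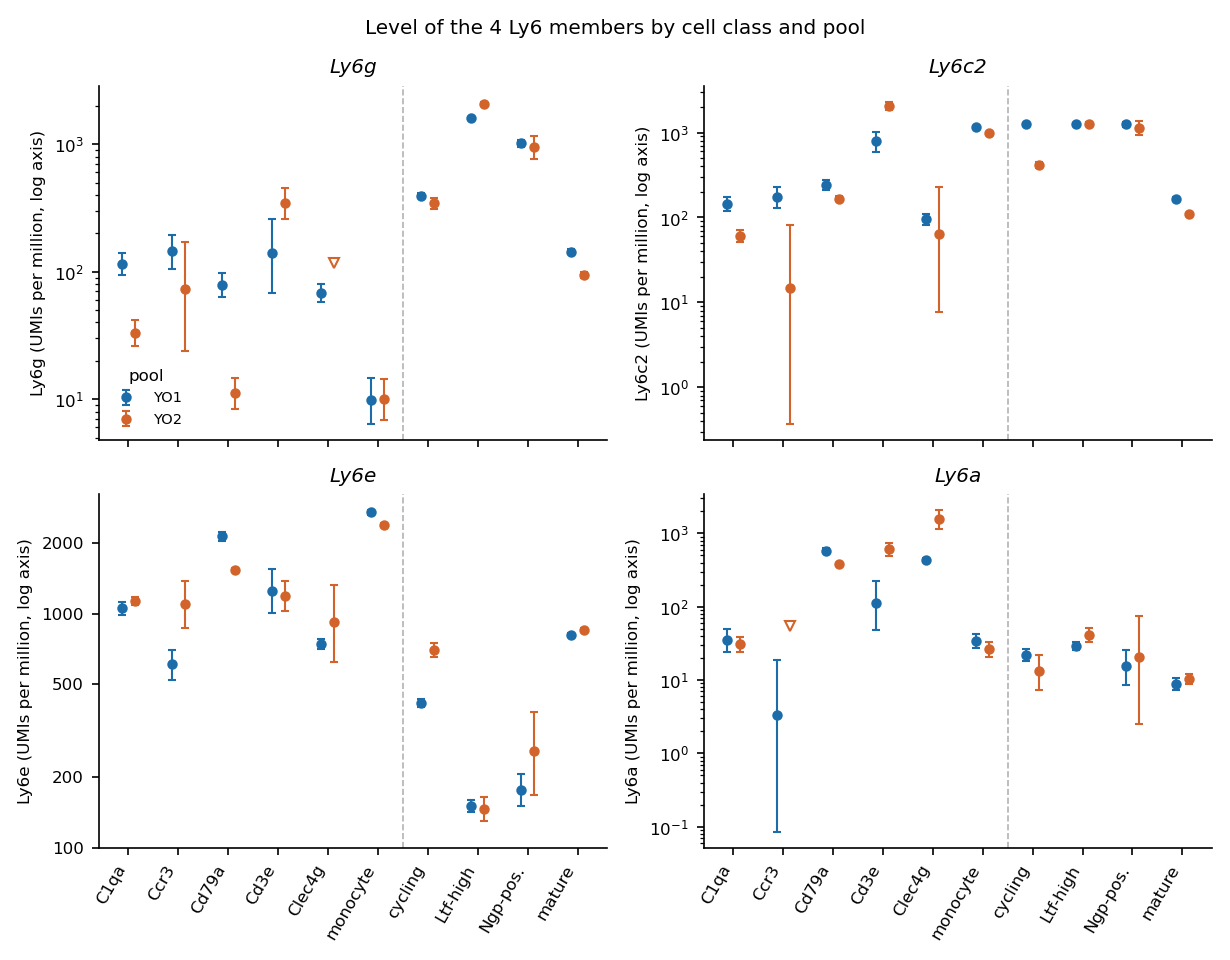
Level of Ly6g, Ly6c2, Ly6e and Ly6a in CPM (log axis) in each cell class of pools YO1 and YO2, with 95% Poisson intervals as bars and open triangles at the upper bound where no UMI was counted. A dashed line separates the classes of other cell types from the neutrophil stages. Ly6g peaked in Ltf-high cells at 1613 and 2075 CPM, and Ly6e was lowest there at 151 and 147 CPM.

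UMIs summed per pool and stage were fitted with edgeR (quasi-likelihood, pool as a block), and p-values were adjusted by Benjamini-Hochberg over all genes tested. Between Ltf-high and cycling cells 28.3% of genes were called higher and 21.1% lower. Of the 4 Ly6 genes, 3 were higher and 1 was lower. Ly6g was higher in Ltf-high cells by 3.15 ± 0.28 (log2 fold change ± SE, adjusted p = 5.66e-06), and its CPM was 4.09 times as high in YO1 and 6.03 times in YO2. With scaling by total UMIs the median gene was 0.64 lower on the log2 scale rather than 0.15 higher, and 937 genes were called higher and 4112 lower, against 2837 and 2121. The Ly6g difference was then 2.33 (adjusted p = 5.63e-05).

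Ngp-positive cells had less Ly6g than Ltf-high cells in both pools, but the difference did not pass the adjusted test. It was −0.86 ± 0.26 on the log2 scale (adjusted p = 0.103, unadjusted p = 0.00669). Between these stages edgeR called 2.24% of genes higher and 1.11% lower and 0 of the 4 Ly6 genes. Ly6g and Ly6e had unadjusted p-values under 0.05, and DESeq2 called Ly6g alone among the 4 (−0.96, adjusted p = 0.0471). The Ngp-positive class of YO2 had 32 cells, whose Ly6g level had a 95% Poisson interval from 759 to 1158 CPM.

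Mature cells had less Ly6g than either granule stage. Between mature and Ngp-positive cells 3.3% of genes were called higher and 4.32% lower, and among the 4 Ly6 genes 1 was higher and 2 were lower. Ly6g was lower in mature cells by −3.15 ± 0.28 (adjusted p = 8.1e-05). Leaving out the Ngp-positive cells of YO1 leaves only the 32 cells of YO2 in that stage. The values were then −3.14 for Ly6g, −3.50 for Ly6c2 and 1.75 for Ly6e. Their calls were lost, as was every other call of this comparison, and the median over all genes was 1.88 rather than 0.16. Against Ltf-high cells, where 17.3% of genes were called higher and 17.2% lower in mature cells, Ly6g was lower by −4.01 ± 0.29 (adjusted p = 2.67e-06), and its CPM was 11.3 times as high in Ltf-high as in mature cells of YO1 and 22.0 times in YO2. Ly6c2 and Ly6a were called lower as well and Ly6e higher, which made 3 of the 4 genes lower and 1 higher.

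Per cell, the same order held. A Ly6g UMI was seen in 58.7% of cycling, 92.2% of Ltf-high, 80.2% of Ngp-positive and 10.6% of mature cells in YO1, and in 41.2%, 96.2%, 84.4% and 9.50% in YO2. The monocyte comparator was chosen by Ccr2 and Csf1r and also limited to under 3 UMIs of Ngp and under 2% of UMIs in S100a8 and S100a9, which keeps out cells with granule RNA and can lower its Ly6g. It had a Ly6g UMI in 2.97% of cells at a median of 3311 UMIs in YO1 and 4.49% at 4934 UMIs in YO2. Because the stages differed in depth, every cell was also thinned to 500 UMIs, and shallower cells were left out. The shares were then 18.6%, 54.3%, 39.4% and 5.22% in YO1 and 15.8%, 60.5%, 21.9% and 3.62% in YO2, against 0.283% and 0% of monocytes. Median Ly6g counts per cell, before thinning, were 1, 4, 2 and 0 UMIs in YO1 and 0, 8, 2 and 0 UMIs in YO2 over the stages. Cells with at least 5 Ly6g UMIs numbered 28 of 9995 mature cells in YO1 and 23 of 9895 in YO2.

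**Figure D2:**
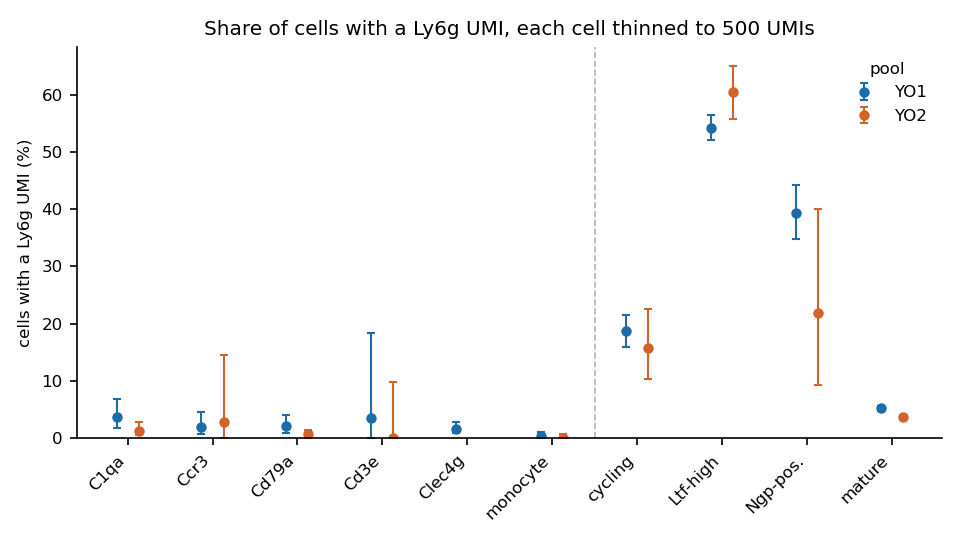
Percentage of cells with at least 1 Ly6g UMI after thinning each cell to 500 UMIs, by class and pool, with 95% Clopper-Pearson intervals. Ltf-high cells stand highest at 54.3% and 60.5%, mature cells are at 5.22% and 3.62%, and the other cell types lie at or below 3.70%.

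Cells with the most RNA of the granule genes had the most Ly6g. Among cells with at least 2% of UMIs in S100a8 and S100a9 and not cycling, Ly6g was at 117 CPM in YO1 and 94.6 CPM in YO2 where Ngp had 0 UMIs. It was at 911 and 635 CPM where Ngp had 5 to 9 UMIs, just under the bound for Ngp-positive cells, and at 976 and 810 CPM just above it, at 10 to 19 UMIs. At 100 or more Ngp UMIs it reached 1764 and 2165 CPM. Ly6c2 was also lowest at 0 UMIs of Ngp, at 135 and 106 CPM, but it did not peak in the last bin. It was at 1344 and 1447 CPM at 20 to 49 UMIs, 1390 and 1292 CPM at 50 to 99, and 1222 and 1265 CPM at 100 or more. Among cells with at least 10 Ngp UMIs, Ly6g was at 988 and 678 CPM where Ltf had 0 UMIs. It was at 1144 and 998 CPM at 3 to 4 UMIs of Ltf, just under the bound for Ltf-high cells, and at 1206 and 451 CPM just above it, where YO2 had 7 cells in each bin. It was at 1841 and 2347 CPM where Ltf had 50 or more. Cells with more UMIs of a gene tend to be deeper, so these bins differ in depth as well as in stage.

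**Figure D3:**
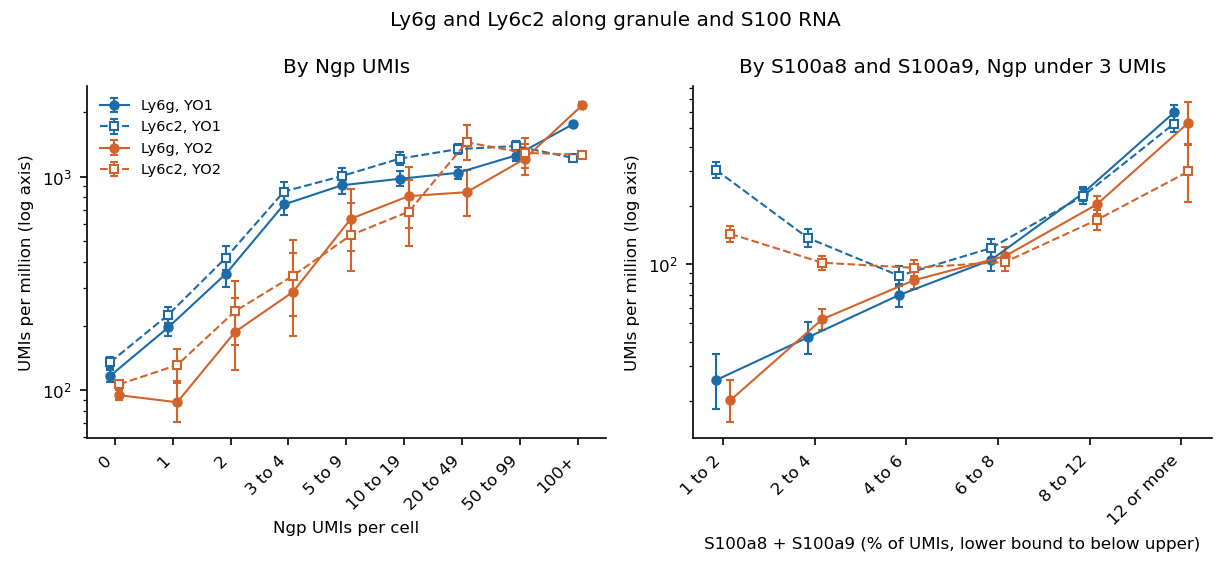
Levels of Ly6g (filled circles) and Ly6c2 (open squares) in CPM (log axis), per pool with 95% Poisson intervals. Cells are binned by their UMIs of Ngp, or by the percentage of UMIs in S100a8 and S100a9 among cells with under 3 Ngp UMIs. Ly6g climbs from 117 and 94.6 CPM at 0 UMIs of Ngp to 1764 and 2165 CPM at 100 or more.

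Among cells with under 3 Ngp UMIs, Ly6g also rose along the share of S100a8 and S100a9. It was at 25.5 CPM in YO1 and 20.1 CPM in YO2 where these genes took 1 to 2% of UMIs, just outside the bound of the mature class, and at 42.2 and 52.2 CPM at 2 to 4%, just inside it. At 12% or more it was at 600 and 532 CPM. Ly6e ran the other way over these bins, with 1539 and 1385 CPM in the lowest and 286 and 490 CPM in the highest. Both directions held in both pools. These are descriptions of bins, with no test.

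The cycling class was not uniform for Ly6g. Cycling cells with at least 10 Ngp UMIs numbered 644 in YO1 and 61 in YO2 and had 501 and 892 CPM of Ly6g. Those with under 3 Ngp UMIs numbered 132 and 92 and had 5.90 and 5.66 CPM, below the mature cells. The second kind made up 16.7% of the cycling class in YO1 and 60.1% in YO2. In YO1, 50 of these cells carried azurophil granule genes, which mark the earliest granulocyte precursors. They had 4.20 CPM of Ly6g beside 2675 CPM of Ly6c2 and 1836 CPM of Ly6e. The other 82 in YO1 and all 92 in YO2 had under 2 UMIs of Elane, Mpo and Prtn3 together. Their Ly6g was at 7.41 and 5.66 CPM and their Ly6c2 at 674 and 14.2 CPM. The cycling rule asks for no neutrophil gene, and the lineage of these cells was not tested. The median S100a8 and S100a9 share of the whole class was 11.9% in YO1 and 1.15% in YO2. The summed level of 5 neutrophil progenitor markers in the whole class was 4514 CPM in YO1 and 25.4 CPM in YO2, so the makeup of the cycling class differed between the pools. Cycling cells were also limited to those with any UMI of the granule genes Ngp, Ltf, Camp, Elane or Mpo. The difference of Ltf-high from cycling cells in Ly6g was then 2.36 on the log2 scale and stayed called. This limit can keep cycling cells with under 3 Ngp UMIs, such as those with azurophil granule genes.

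Mature cells with a Ly6g UMI had higher levels of Retnlg, Mmp8, Lcn2, Camp, Cd177 and Ngp than mature cells without one. The granule gene Ltf differed in opposite directions in the pools. Cells with a Ly6g UMI numbered 1062 against 8933 in YO1 and 940 against 8955 in YO2. Median depths were 1254.5 against 999 and 1546 against 1331 UMIs. Retnlg, a neutrophil resistin-like protein, was at 26217 against 11185 CPM in YO1 and 12713 against 7942 CPM in YO2. Mmp8, the neutrophil collagenase, was at 3425 against 1247 CPM and 1633 against 1076 CPM. Lcn2, an iron-trapping granule protein, was at 3378 against 1730 CPM and 1722 against 1228 CPM. Ltf was at 53.7 against 59.3 CPM and 16.2 against 13.7 CPM, and Camp, an antimicrobial granule peptide, at 71.5 against 62.8 CPM and 11.2 against 7.92 CPM. Cd177 was at 82.1 against 22.2 CPM and 22.4 against 16.9 CPM. Ngp, held under 3 UMIs in this class, was at 319 against 210 CPM and 53.1 against 44.4 CPM. The neutrophil marker Csf3r was lower, at 1690 against 2349 CPM and 2233 against 2438 CPM. The inflammatory cytokine gene Il1b was lower in cells with a Ly6g UMI, at 6702 against 10646 CPM in YO1 and 9915 against 11031 CPM in YO2. Cxcr2, the chemokine receptor of circulating neutrophils, was close, at 3016 against 2995 CPM and 3653 against 3802 CPM. Ly6c2 was at 410 against 129 CPM and 260 against 89.2 CPM. Ly6e differed in opposite directions, at 675 against 834 CPM in YO1 and 934 against 844 CPM in YO2. These cells were split by Ly6g itself, and the split was given no test.

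Cells bearing a marker of another lineage had passed the Ly6G sort, and in most of these classes Ly6g was at or below its level in mature neutrophils, the Cd3e class of YO2 excepted. They were taken as cells with at least 2 UMIs of 1 marker and under 2 of the other markers, namely C1qa (complement, macrophages), Ccr3 (an eotaxin receptor), Cd79a (B cell receptor), Cd3e (T cell receptor) or Clec4g (liver endothelium). They numbered 246, 272, 394, 28 and 790 cells in YO1 and 457, 36, 898, 36 and 5 in YO2. The monocyte comparator, limited to low Ngp and S100 RNA as given above, added 708 and 557 cells, while the other classes had no such limit. The C1qa class had 5 of 8 macrophage markers in at least 20% of its cells in each pool, the Cd79a class 6 of 7 B cell markers in YO1 and 7 in YO2, the Cd3e class 8 of 8 T cell markers, and the Clec4g class of YO1 7 of 7 endothelial markers. The Ccr3 class had only 1 of 7 eosinophil markers, Alox15, while Siglecf was in 15.1% and 13.9% of its cells and Epx had 0 UMIs, so it is called by its gene.

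Ly6g stood at 115 CPM in the C1qa class of YO1 and 33.1 CPM in that of YO2, against 143 and 94.5 CPM in mature neutrophils. The Ccr3 class had 144 and 73.5 CPM and the Cd79a class 79.3 and 11.2 CPM. Monocytes had 9.92 and 10.1 CPM. The Cd3e class, with under 30 cells in YO1, had 141 and 344 CPM, the second above mature cells. In the Clec4g class Ly6g was at 68.0 CPM in YO1, and 0 UMIs in the 5 cells of YO2 allow up to 95.9 CPM, which counts 3 UMIs over the class and covers counting error only.

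In edgeR's quasi-likelihood fit of these classes against mature cells, Ly6g was lower in the C1qa class by −1.71 ± 0.31 (adjusted p = 0.000146), where 34.9% of genes were called higher and 32.9% lower. This is a fold of 3.27, above the ratios of CPM in mature to C1qa cells, 1.25 in YO1 and 2.85 in YO2. Ly6g was lower in the Cd79a class by −2.41 ± 0.32 (adjusted p = 5.84e-06), where 36.2% were higher and 34.6% lower, and in monocytes by −4.42 ± 0.37 (adjusted p = 4.32e-08), where 35.2% were higher and 33.6% lower. The monocytes were limited to cells with little granule RNA and the C1qa and Cd79a classes were not, so these sizes are not comparable with each other. In the Ccr3 class, where 7.69% were higher and 20.4% lower, the fitted difference was −1.20 ± 0.43 (adjusted p = 0.0455), but the CPM of YO1 was 144 against 143 and the call was lost with total UMIs (−0.31, adjusted p = 0.693), DESeq2 (−0.79, adjusted p = 0.340) and no replicate block (−0.90, adjusted p = 0.389). It was lost as well with any 1 of the Ccr3 sums or the mature sum of YO2 left out (−1.41, −1.22 and −0.87). The Cd3e and Clec4g classes were not tested because 1 pool had under 30 cells. Of the 4 Ly6 genes, 1 was higher and 2 lower in the C1qa class, 0 and 3 in the Ccr3 class, 2 and 1 in the Cd79a class, and 3 and 1 in monocytes. With total-UMI scaling the median gene was 0.85, 0.56, 0.46 and 0.90 on the log2 scale in the C1qa, Ccr3, Cd79a and monocyte comparisons, against 0.05, −0.36, 0.04 and 0.06 with TMM. Genes called higher and lower were then 5241 and 1381 for C1qa against 3710 and 3492, 1772 and 298 for Ccr3 against 817 and 2166, 4413 and 2345 for Cd79a against 3846 and 3679, and 5517 and 1450 for monocytes against 3741 and 3570.

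Most Ly6g UMIs of the larger classes in YO1 came from a few cells that also carried granule RNA. In the C1qa class, 16 cells of YO1 with at least 10 Ngp UMIs held 82.2% of the class's Ly6g UMIs and had 878 CPM of Ly6g, and 3 cells of YO2 held 35.5% and had 849 CPM. In the Cd79a class, 14 cells held 73.2% in YO1 and 3 held 25.9% in YO2, with 621 and 587 CPM. Such cells held 79.1% in the Ccr3 class of YO1 (9 cells, 797 CPM), and 69.6% in the Clec4g class of YO1 (22 cells, 892 CPM). In the Cd3e class they held 80% in YO1 (3 cells) and 98.1% in YO2 (4 cells). Their Ly6g level was within the range of the neutrophil stages between Ltf-high and cycling cells.

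The granule-bearing cells were also deeper than their classes. Their median depth was 5684 UMIs in YO1 and 7487 in YO2 for C1qa, where the whole class had 3356 and 4691, and 6177.5 and 6916 for Cd79a, where it had 1502 and 3518.5. Their ratio of Ly6g to Ngp UMIs, per 100 of Ngp, was 2.51 and 2.33 for C1qa, 1.88 and 3.31 for Cd79a, and in YO1 1.78 for Ccr3 and 3.27 for Clec4g. That ratio was 1.05 and 1.72 in cycling and 3.39 and 3.91 in Ltf-high cells, and 64.0 and 208 in mature cells. Mature cells were limited to under 3 Ngp UMIs and the granule-bearing cells to at least 10, which by itself sets their ratios apart. In C1qa cells with under 3 Ngp UMIs the ratio was 25.4 in YO1 and 126 in YO2. No cells were removed as doublets, and the part of 2 cells under 1 barcode in these values was not tested.

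In the cells with under 3 Ngp UMIs, Ly6g was at 22.6 CPM in YO1 and 21.4 CPM in YO2 for C1qa, 32.3 and 73.5 CPM for Ccr3, 22.5 and 7.81 CPM for Cd79a, and 18.0 CPM for Clec4g in YO1. Mature neutrophils, at 143 and 94.5 CPM, were above all of these, but the Ccr3 value of YO2 came from 5 Ly6g UMIs. Its 95% Poisson interval, from 23.9 to 172 CPM, includes the mature level of that pool. With under 3 Ngp UMIs, the fitted differences from mature cells were −3.13 for C1qa, −2.57 for Ccr3 and −3.67 for Cd79a on the log2 scale, an alternative added after the data were seen. With every non-neutrophil class limited to under 2% of UMIs in S100a8 and S100a9, they were −3.63 for C1qa, −4.58 for Cd79a and −4.47 for monocytes. Mature cells have at least 2% by their rule, and Ly6g rose with that share among cells with under 3 Ngp UMIs. Such a split can therefore widen these differences by itself. With under 2% of UMIs in S100a8 and S100a9, the levels were 16.3 and 16.8 CPM for C1qa and 9.48 and 5.09 CPM for Cd79a, beside 9.92 and 10.1 CPM in monocytes, which had been limited in the same way, and 7.64 and 12.5 CPM in cells that met no class rule. The 10 neutrophil markers summed to 28512 and 12722 CPM in the C1qa class, 24781 and 5923 CPM in the Cd79a class, 69334 and 31005 CPM in the Ccr3 class and 5071 and 5473 CPM in monocytes, against 91504 and 71955 CPM in mature cells. The part of this neutrophil RNA in the Ly6g of each class was not tested beyond the splits above.

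**Figure D4:**
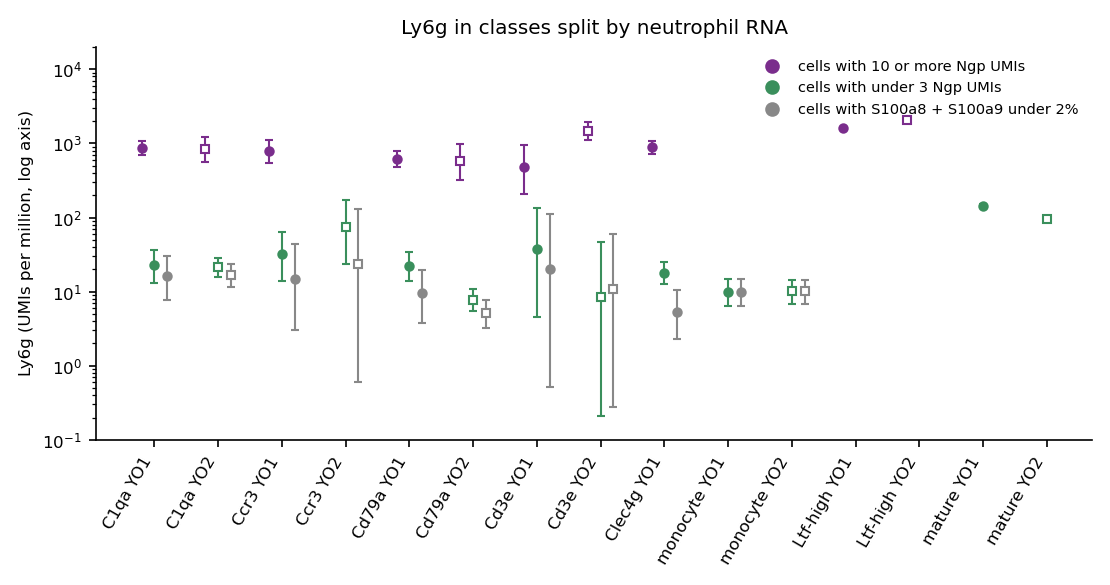
Ly6g level in CPM (log axis) with 95% Poisson intervals in cells of each non-neutrophil class split by granule and S100 RNA, with filled circles for YO1 and open squares for YO2. Purple marks cells with at least 10 Ngp UMIs, green cells with under 3, and grey cells with under 2% of UMIs in S100a8 and S100a9. In the C1qa class the first stand at 878 and 849 CPM and the second at 22.6 and 21.4 CPM.

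After thinning to 500 UMIs, a Ly6g UMI was seen in 3.70% of the C1qa class in YO1 and 1.31% in YO2, 2.05% and 0.668% of the Cd79a class, 2% and 2.78% of the Ccr3 class, and 1.66% of the Clec4g class in YO1. Mature cells had 5.22% and 3.62%. Cells of no class had 0.612% and 0.562%, and monocytes 0.283% and 0%. The unthinned shares were 12.6% and 6.78% for C1qa and 7.11% and 4.12% for Cd79a. The C1qa class had 1.71 to 6.91% in YO1 and 0.483 to 2.84% in YO2 as 95% intervals, and cells of no class 0.357 to 0.977% and 0.368 to 0.823%, so the intervals were apart in YO1 and overlapped in YO2.

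Ly6c2 was high in the Ltf-high and Ngp-positive stages and in monocytes, and low in mature neutrophils. Cycling, Ltf-high, Ngp-positive and mature cells had 1265, 1257, 1245 and 165 CPM in YO1 and 416, 1263, 1130 and 109 CPM in YO2, and monocytes had 1160 and 976 CPM. The pools differed most in the cycling class, where the 92 cells of YO2 with under 3 Ngp UMIs had 14.2 CPM. Ly6c2 was lower in mature than in Ngp-positive cells by −3.23 ± 0.38 (log2 fold change ± SE, edgeR adjusted p = 0.000366) and lower than in Ltf-high cells by −3.30 ± 0.37 (adjusted p = 3.43e-05). Its difference of Ngp-positive from Ltf-high cells was −0.07 (adjusted p = 0.966). In Ltf-high against cycling cells it was called higher by 1.54 ± 0.35 (adjusted p = 0.00386), but its CPM was 0.993 times as high in YO1 and 3.04 times in YO2, and the call was lost with total UMIs (0.72, adjusted p = 0.0905) and DESeq2 (0.97, adjusted p = 0.0544). Against mature cells, monocytes were higher in Ly6c2 by 2.15 ± 0.31 (adjusted p = 1.37e-05) and the C1qa class lower by −1.30 ± 0.32 (adjusted p = 0.00205). The C1qa call was lost with total UMIs (−0.51), DESeq2 (−0.90) and without the C1qa cells of YO2 (−0.93, adjusted p = 0.0630).

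Among lymphoid classes Ly6c2 varied more. The Cd79a class had 241 and 166 CPM and did not pass the test against mature cells (0.15, adjusted p = 0.679), a sign that turned under several settings given below. The Cd3e class had 791 CPM in 28 cells of YO1 and 2045 CPM in 36 cells of YO2. Some T cells are known to carry Ly6C. The Clec4g class of YO1 had 95.1 CPM and the Ccr3 class 175 CPM in YO1 and 14.7 CPM in YO2. Reads shared with Ly6c1 bear on each of these. Ly6c1 itself had no more than 7.2 CPM in any neutrophil stage, and its level in the classes of this paragraph is not given here.

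Ly6e ran against Ly6g over the stages. It had 416, 151, 177 and 813 CPM in cycling, Ltf-high, Ngp-positive and mature cells of YO1 and 703, 147, 259 and 855 CPM in YO2. Ltf-high cells were lowest and mature cells highest in both pools. It was lower in Ltf-high than in cycling cells by −1.05 ± 0.22 (log2 fold change ± SE, edgeR adjusted p = 0.00199). In Ngp-positive against Ltf-high cells the difference was 0.57 ± 0.24 (adjusted p = 0.232). Mature cells were higher than Ngp-positive cells by 1.89 ± 0.24 (adjusted p = 0.000668) and higher than Ltf-high cells by 2.46 ± 0.22 (adjusted p = 8.92e-06).

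Most other cell types had at least as much Ly6e as mature neutrophils. Monocytes had 2718 and 2398 CPM and the Cd79a class 2142 and 1537 CPM, against 813 and 855 CPM in mature cells, and both were called higher, by 0.78 ± 0.22 (edgeR adjusted p = 0.00538) and 0.65 ± 0.22 (adjusted p = 0.0155). The monocyte call was lost without the mature cells of YO1 (0.75), those of YO2 (0.76) or the monocytes of YO1 (0.54), and the Cd79a call without the mature cells of YO1 (0.61), those of YO2 (0.62) or the Cd79a cells of YO2 (0.61). The C1qa class had 1056 and 1133 CPM, above mature cells in CPM, while the fitted difference was −0.40 (adjusted p = 0.122), a sign that turned with total UMIs to 0.39. In the Ccr3 class Ly6e was called lower by −1.10 (adjusted p = 0.00256), although its CPM of 608 in YO1 and 1103 in YO2 lay on either side of mature cells, and the call was lost with total UMIs (−0.00).

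Within mature neutrophils Ly6e was higher in cells with interferon-induced RNA. Cells with at least 3 UMIs of Ifit1, Ifit3, Rsad2 and Isg15 together (802 in YO1, 1199 in YO2) had 1632 and 1463 CPM of Ly6e, against 655 and 678 CPM in cells with none (7592 and 6713). In this comparison 0.901% of genes were called higher and 0.0107% lower, and 1 of the 4 Ly6 genes was called. That was Ly6e, by 1.24 ± 0.21 (log2 fold change ± SE, edgeR adjusted p = 0.00887). Without the replicate block the value was 1.23 and the call was lost (adjusted p = 0.0689). It was also lost without the interferon-negative cells of YO2 (1.13, adjusted p = 0.125), without the interferon-positive cells of YO1 (1.02, adjusted p = 0.285) and with a gate of 1 UMI (0.84, adjusted p = 0.178). Along bins of these 4 genes, with 0, 1 to 2, 3 to 5, 6 to 10, 11 to 20 and at least 21 UMIs, Ly6e was at 655, 998, 1399, 1765, 2213 and 2535 CPM in YO1 and 678, 974, 1161, 1565, 1987 and 2612 CPM in YO2. The last bin held 31 and 71 cells.

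The other 3 genes did not pass the test there. Ly6g was at 129 against 149 CPM in YO1 and 91.5 against 99.001 CPM in YO2, a difference of −0.15 ± 0.25 (edgeR adjusted p = 1). Ly6c2 was at 228 against 153 CPM and 176 against 89.6 CPM (0.80 ± 0.34, adjusted p = 1, unadjusted p = 0.034). Ly6a was at 14.6 against 7.98 CPM and 23.1 against 6.06 CPM (1.49 ± 0.38, adjusted p = 0.147), also with an unadjusted p under 0.05. The levels of Ly6c2 and Ly6a in interferon-positive cells were above those of interferon-negative cells in both pools without passing the adjusted test. Of a list of 14 other interferon-induced genes, 13 were tested and 13 were called higher, with a median of 2.30 against −0.01 over all genes, and with Usp18, which damps interferon signalling, at 4.10 and Irf7, a transcription factor of the response, at 2.44. The list shares its kind with the genes that chose the cells, and its direction is not independent evidence.

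**Figure D5:**
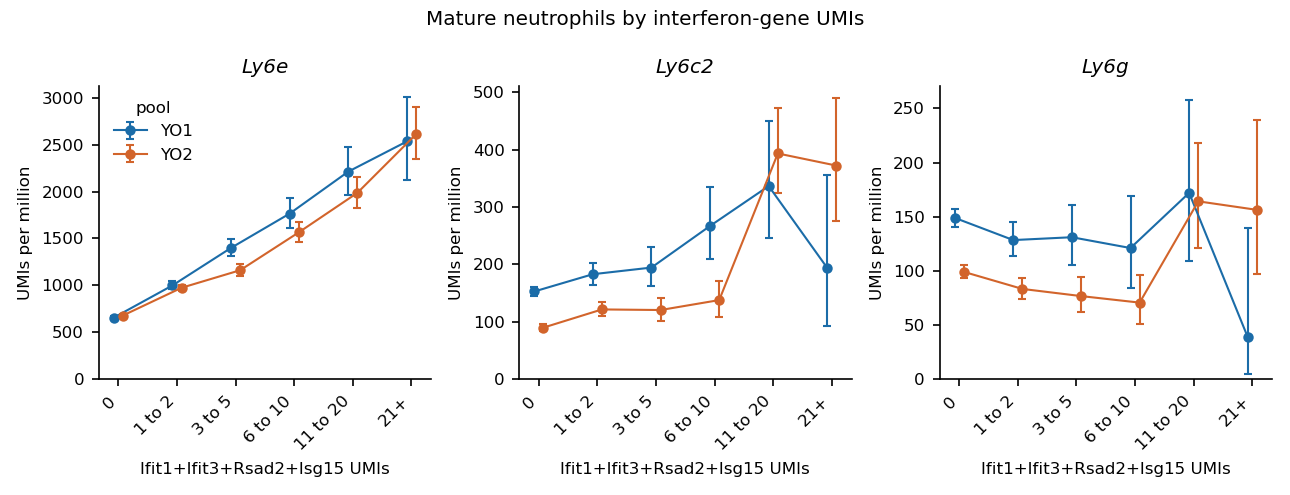
Level in CPM of Ly6e, Ly6c2 and Ly6g in mature neutrophils binned by their summed UMIs of Ifit1, Ifit3, Rsad2 and Isg15, per pool with 95% Poisson intervals. Ly6e stands at 655 and 678 CPM at 0 UMIs and at 2535 and 2612 CPM at 21 or more.

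Ly6a was low in neutrophils of every stage. Cycling, Ltf-high, Ngp-positive and mature cells had 22.2, 29.2, 15.4 and 8.88 CPM in YO1 and 13.1, 41.5, 20.7 and 10.4 CPM in YO2. It was called higher in Ltf-high than in cycling cells by 1.64 ± 0.34 (log2 fold change ± SE, edgeR adjusted p = 0.00215), but its CPM was 1.31 times as high in YO1 and 3.16 times in YO2. It was called lower in mature than in Ltf-high cells by −1.87 ± 0.33 (adjusted p = 0.000802). The difference of mature from Ngp-positive cells did not pass the test (−0.92 ± 0.52, adjusted p = 0.354). Lymphoid and endothelial classes stood far above these levels. The Cd79a class had 583 and 377 CPM, against 8.88 and 10.4 CPM in mature cells, higher by 5.12 ± 0.21 (adjusted p = 4.18e-11). The Clec4g class of YO1 had 430 CPM and the Cd3e class 113 and 604 CPM, both untested. The 1566 CPM of the Clec4g class in YO2 came from 49 UMIs in 1 of 5 cells.

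Macrophage and monocyte classes had low but higher levels of Ly6a than mature cells. The C1qa class had 35.3 and 30.9 CPM (0.96 ± 0.24, edgeR adjusted p = 0.00188) and monocytes 34.5 and 26.3 CPM (0.80 ± 0.22, adjusted p = 0.00383), against 8.88 and 10.4 CPM in mature cells. Without the mature cells of YO1 both calls were lost (0.73 and 0.55), and without the monocytes of YO1 that of monocytes was (0.54). The Ccr3 class had 1 UMI of Ly6a in YO1 and 0 in YO2 and was called lower (adjusted p = 0.0386), a call lost with total UMIs, DESeq2, no low-count filter and either Ccr3 sum left out. Ly6a shared 24.5% of its stretches of 42 bases with other annotated genes (314 of 1281), and the part of shared reads in these low levels was not tested.

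Itgam, which encodes the CD11b chain of the same sort, was also highest in the granule stages. It had 643, 1557, 1346 and 702 CPM over the stages in YO1 and 399, 1607, 1264 and 708 CPM in YO2. It was higher in Ltf-high than in cycling cells by 2.43 ± 0.26 (log2 fold change ± SE, edgeR adjusted p = 2.44e-05) and lower in mature than in Ltf-high cells by −1.19 (adjusted p = 0.00262). The C1qa class had 429 and 434 CPM, monocytes 515 and 500 CPM and the Ccr3 class 1159 and 882 CPM, against 702 and 708 CPM in mature cells. The Cd79a class had 213 and 84.4 CPM. Against mature cells Itgam was called lower in the C1qa class (−1.50), monocytes (−1.32) and the Cd79a class (−2.87). In the Ccr3 class the fitted difference of −0.49 did not pass (edgeR adjusted p = 0.157). Its sign was opposite to that of the CPM, which was above mature cells in both pools. CD11b is carried by macrophages and monocytes as well as neutrophils.

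Of 40 other genes of the Ly6 and uPAR family, 25 were in the count table and 7 passed the low-count filter across stages. In Ltf-high against cycling cells, where 28.3% of all genes were higher and 21.1% lower, 4 of the 7 were higher and 0 lower, with a median of 2.04 against 0.15 over all genes (log2 fold changes). They were Ly6g5b (2.78), Plaur, the urokinase receptor (2.05), Cd177, a neutrophil surface protein that binds PECAM1 (2.04), and Ly6i (1.87). In mature against Ngp-positive cells (3.3% and 4.32% of all genes) 0 were higher and 3 lower, namely Cd177 (−3.86), Ly6g5b (−3.28) and Ly6i (−1.82). In mature against Ltf-high cells (17.3% and 17.2%) 2 were higher, Lypd6b (3.12) and Gpihbp1 (1.85), and 4 lower, Ly6g5b (−5.48), Cd177 (−4.55), Ly6c1 (−2.64) and Ly6i (−2.44). In Ngp-positive against Ltf-high cells (2.24% and 1.11%) 0 were higher and 1 lower, Ly6g5b (−2.19).

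The levels of these relatives differed in how far they dropped. Cd177 had 29.99 and 17.6 CPM in mature cells, against 476 and 573 CPM in Ltf-high cells. Plaur had 598 and 593 CPM in mature cells, against 728 and 832 CPM. Ly6i had 23.9 and 29.96 CPM, against 110 and 184 CPM, and was called higher in interferon-positive mature cells by 1.34 ± 0.22 (edgeR adjusted p = 0.00819), the 1 family member called there. Outside neutrophils the Cd79a class, where 36.2% of all genes were higher and 34.6% lower, had 3 of 8 tested members higher than mature cells, Ly6k (8.64), Ly6d (8.47) and Lynx1 (6.37), of which Ly6d is a known marker of early B cells and stood at 587 and 419 CPM. In that class 4 were lower, among them Lypd6b, Plaur and Cd177. The C1qa class had 0 higher and 3 lower of 8 tested (34.9% and 32.9% of all genes), the Ccr3 class 0 and 1 (7.69% and 20.4%), and monocytes 2 higher, Lynx1 (2.92) and Ly6i (1.06), and 3 lower (35.2% and 33.6%). The Clec4g class of YO1 had 1848 CPM of Gpihbp1, the endothelial anchor of lipoprotein lipase.

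Ly6 proteins need the GPI anchor, and the genes that build it were read as a list. Of 31 such genes 29 were measured and 25 tested across stages. In Ltf-high against cycling cells 5 were higher, among them Pigl (1.98), and 1 was lower, Pigp (−1.59), on the log2 scale, where 28.3% and 21.1% of all genes were called. In Ngp-positive against Ltf-high cells and in mature against Ngp-positive cells 0 of 25 were called by edgeR or DESeq2 in either direction, with 2 and 1 at an unadjusted edgeR p under 0.05. In mature against Ltf-high cells 1 was higher and 4 were lower (17.3% and 17.2% of all genes). Against mature cells, of 27 tested, 10 were higher and 5 lower in the C1qa class (34.9% and 32.9% of all genes), 0 and 6 in the Ccr3 class (7.69% and 20.4%), 10 and 8 in the Cd79a class (36.2% and 34.6%) and 11 and 7 in monocytes (35.2% and 33.6%). Between interferon-positive and interferon-negative mature cells 0 of 24 were called by edgeR or DESeq2, with 1 at an unadjusted p under 0.05.

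The 14 interferon-induced genes were also read across stages and classes. In Ltf-high against cycling cells 7 were higher and 0 lower (28.3% and 21.1% of all genes), with a median of 1.15 against 0.15 over all genes, while Ly6e was lower there. In Ngp-positive against Ltf-high cells 2 were higher and 0 lower (2.24% and 1.11%), in mature against Ngp-positive cells 1 and 0 (3.3% and 4.32%), and in mature against Ltf-high cells 8 and 0 (17.3% and 17.2%). Against mature cells 2 were higher and 8 lower in the C1qa class (34.9% and 32.9%), 0 and 5 in the Ccr3 class (7.69% and 20.4%), 1 and 9 in the Cd79a class (36.2% and 34.6%) and 7 and 3 in monocytes (35.2% and 33.6%).

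Across 18 sums of pool and class, levels were compared between genes by Pearson correlation of log2(CPM + 5) as a description. The genes most like Ly6g were Wfdc21 (0.985), Lcn2 (0.977), Mapk13 (0.954), Ppp1r42 (0.939) and Chil1 (0.937). Those most like Ly6c2 were led by Ifitm6 (0.848) and Ndufa3 (0.841), those most like Ly6e by Mta3 (0.911) and Pou2f2 (0.901), and those most like Ly6a by Gimap8 (0.880) and Ptp4a3 (0.858). Between members, r was −0.908 for Ly6g and Ly6e, 0.467 for Ly6g and Ly6c2 and −0.175 for Ly6g and Ly6a. The sums of a pool share its library, and classes differ in depth.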

How the data were processed

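Counts per cell were used as deposited: the authors' table holds whole-number UMI counts per gene and cell barcode, with no scaling. Per the submitters' processing notes the build was mm10. Which aligner, annotation and counting were used was not given in the sources used here. Not used here were 2 libraries of sample tags and the library titled as unidentified. Kept cells had 200 or more UMIs, 100 or more genes and a mitochondrial share under 20%, and no doublets were removed. The genes that define classes were left out of the tests.

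UMIs were summed per pool and class where each had at least 30 cells. Two-sided quasi-likelihood tests were made on these sums in edgeR 4.0.16, with the pool as a block, TMM scaling and filterByExpr (threshold 0.05 after Benjamini-Hochberg adjustment over all genes tested) in R 4.3.3. DESeq2 1.42.0 was an alternative. The 2 pools are separate rounds of the experiment per the labels, so the pool pairs the classes. CPM carry exact Poisson and shares exact Clopper-Pearson intervals of 95%, for counting error only. Thinning drew 500 UMIs per cell (seed 1). Genes most like a member were the 5 with the highest correlation among genes averaging at least 20 CPM over the sums. The other tools were matplotlib 3.10.9, pandas 2.3.3, scipy 1.17.1, numpy 2.4.6 and Python 3.11.15, and the fit was tested on simulated data.

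The members, thresholds and gene lists were chosen with earlier results of these data known. Named were the 4 genes, Itgam, the class genes, and called genes of the fixed lists. The mature split by Ly6g and the bins are descriptions.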

Additional observations from a re-analysis of the deposited data

How the results depend on the processing

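Of 468 refitted values of the 4 genes, 411 kept their direction and side of the threshold, 12 gained a call, 36 lost one and 9 changed sign. Ly6g in Ngp-positive against Ltf-high cells was called with DESeq2 (−0.96), without the low-count filter (−0.99, adjusted p = 0.00208) and without the 6% of cells with the most UMIs (−0.85, adjusted p = 0.0471). Left-out sums gave it −1.29 to −0.40, and it was called without the Ltf-high cells of YO1. Ly6g in the Ccr3 class lost its call with DESeq2 (−0.79), total UMIs (−0.31) and no replicate block (−0.90), and left-out sums gave −1.85 to −0.87. Left-out sums gave Ly6g 2.77 to 3.61 in Ltf-high against cycling, −3.48 to −2.88 in mature against Ngp-positive, −4.44 to −3.54 in mature against Ltf-high cells, and −2.22 to −1.24 (C1qa), −3.15 to −1.79 (Cd79a) and −5.11 to −3.78 (monocytes) against mature cells, and −0.40 to 0.088 with interferon genes. Without the replicate block Ly6g was 3.13, −0.84, −3.15 and −3.99 over the stages, −1.58, −2.26 and −4.40 in the C1qa, Cd79a and monocyte comparisons and −0.15 with interferon genes, and no Ly6g call but that in the Ccr3 class changed. Signs turned for Ly6a in mature against Ngp-positive cells (0.13 with cells of other markers kept), Ly6e in the C1qa class (0.39, total UMIs), and Ly6c2 in the Cd79a class (−0.17 with under 3 Ngp UMIs, −0.11 with under 2% S100 UMIs, −1.72 with adjusted p = 1.65e-05 without the 6% deepest cells, −0.33 to 0.47 with left-out sums) and in Ngp-positive against Ltf-high cells (−0.53 to 0.49). Ly6e with interferon genes lost its call at a gate of 1 UMI (0.84, adjusted p = 0.178) and with sums left out (1.02 to 1.43). Counts of called genes, higher and lower, were 225 and 111 for Ngp-positive against Ltf-high cells. They were 15 and 14 without the block and 82 and 62 with cells of other markers kept. With cycling cells limited to those with a UMI of a granule gene they were 614 and 299. They were 470 and 253 without the deepest cells and 117 and 130 with total UMIs. For mature against Ngp-positive cells they were 331 and 434, and 130 and 289 without the block. They were 664 and 713 with cycling cells limited to those with a UMI of a granule gene and 707 and 440 without a filter. For interferon genes they were 84 and 1, and 55 and 0 without the block and 42 and 1 at 1 UMI. DESeq2 called 1299 and 3198 in Ltf-high against cycling cells. The causes were not tested.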
